A study of Homo sapiens with 8 samples.

Results

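The 10 AP-1 transcription factor genes JUN, JUNB, JUND, FOS, FOSB, FOSL1, FOSL2, ATF3, BATF and BATF3 were examined for accessible chromatin in and around each gene. They were chosen by name and are 10 of the 20037 protein-coding genes of the reference table. For every gene, the listed ATAC-seq peaks that overlapped the gene body or the 50 kb on either side were taken from each of 8 peak lists. ATAC-seq uses a transposase that inserts adapters into open chromatin, and a peak is a stretch where such insertions exceed the background. Peaks within 1 kb of a protein-coding gene start were called promoter peaks, and peaks farther than that from all such starts were called distal.

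The samples came from the human lung cancer lines H1975 and HCC44, each labelled with genotype WT. Each line had 2 replicates with DMSO, the solvent, and 2 with ACBI1, all at 96 h. The labels give the ACBI1 dose as 1 mM, a unit that could not be checked here and that is large for such a compound. ACBI1 is a compound that directs the SWI/SNF ATPases SMARCA2 and SMARCA4, and the subunit PBRM1, to degradation. The labels do not say whether replicates were separate cultures, so the spread between them may be technical.

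AP-1 is a family of dimers of basic leucine zipper proteins. JUN proteins pair with each other or with FOS, ATF or BATF proteins, and FOS proteins need a JUN partner to bind DNA. The dimers bind the short palindrome TGACTCA or the longer TGACGTCA, many of their sites lie in enhancers, and AP-1 is known to recruit SWI/SNF complexes there. In epithelial tumours such as those of the lung, AP-1 is known for carrying growth factor and stress signals to genes of proliferation, invasion and inflammation.

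The RefSeq promoter table (GRCh38.p14) gave a start for 8 of the 10 genes. FOSL1 and BATF3 are not in it. For these either gene end was used to place peaks, and their promoter sequences were not searched for motifs. Reference promoters ran from 250 bases before to 50 after a start. The letters TGACTCA, or on the other strand TGAGTCA, stood in 1738 of 35116 of them, or 4.95%. Among the 8 AP-1 genes searched they stood only in FOSL2. TGACGTCA, its own reverse complement, stood in 649 promoters, or 1.85%, and among these 8 genes only in JUND, at position -200 from the start. The variant TGACATCA (TGATGTCA on the other strand), searched after the sequences had been seen, stood in 918 promoters, or 2.61%, and in JUN at position -67 and at the first start of ATF3 at position -123. No listed start of these 8 genes had more than 1 of the 3 motifs, so none overlapped.

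These stretches are printed because they hold one of the motifs (JUN, JUND, ATF3, FOSL2) or because the peak at the start was listed differently with ACBI1 in HCC44 (JUND, FOSB, BATF). Capitals mark the motif, and FOSB and BATF hold none of the 3. The first 5 are the 250 bases upstream of the start, on the gene's own strand, and FOSL2 is a site of 30 bases. JUN is chr1:58784048-58784297 (minus strand), JUND chr19:18281623-18281872 (minus), FOSB chr19:45467746-45467995 (plus), ATF3 chr1:212565157-212565406 (plus), BATF chr14:75522219-75522468 (plus) and FOSL2 chr2:28392851-28392880 (plus). A match is a description of the letters, not evidence of binding.
JUN: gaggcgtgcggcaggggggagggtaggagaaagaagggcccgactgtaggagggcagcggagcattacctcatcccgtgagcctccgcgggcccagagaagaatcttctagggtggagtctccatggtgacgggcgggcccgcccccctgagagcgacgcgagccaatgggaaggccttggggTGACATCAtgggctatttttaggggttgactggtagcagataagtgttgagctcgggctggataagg
JUND: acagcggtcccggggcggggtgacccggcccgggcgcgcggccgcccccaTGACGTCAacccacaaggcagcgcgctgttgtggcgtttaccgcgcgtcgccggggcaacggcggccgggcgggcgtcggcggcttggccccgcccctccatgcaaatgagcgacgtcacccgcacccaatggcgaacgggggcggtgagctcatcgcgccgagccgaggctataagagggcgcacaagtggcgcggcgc
FOSB: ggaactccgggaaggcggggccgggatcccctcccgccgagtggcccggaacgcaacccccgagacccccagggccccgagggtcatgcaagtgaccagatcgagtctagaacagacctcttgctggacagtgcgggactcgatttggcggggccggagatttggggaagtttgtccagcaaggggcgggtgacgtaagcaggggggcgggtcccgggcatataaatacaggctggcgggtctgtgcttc
ATF3: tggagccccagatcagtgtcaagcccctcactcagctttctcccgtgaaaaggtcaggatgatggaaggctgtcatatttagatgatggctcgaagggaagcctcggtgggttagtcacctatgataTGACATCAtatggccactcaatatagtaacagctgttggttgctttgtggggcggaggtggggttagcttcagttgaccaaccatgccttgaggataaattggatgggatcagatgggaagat
BATF: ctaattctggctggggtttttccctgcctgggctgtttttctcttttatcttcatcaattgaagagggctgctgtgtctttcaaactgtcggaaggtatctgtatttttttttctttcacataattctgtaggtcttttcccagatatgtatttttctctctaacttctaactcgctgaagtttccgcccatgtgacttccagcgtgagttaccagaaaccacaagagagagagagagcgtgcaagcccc
FOSL2: tgccattgtagTGACTCAtctcgggcagag

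The 8 lists held 22133 to 50347 peaks, and the 4 ACBI1 lists were the shortest. The H1975 lists went from 43525 and 41027 peaks in DMSO to 27682 and 22133 in ACBI1. For HCC44 these lengths were 50347 and 49945, then 26313 and 24862. Promoter peaks made up 23.3% to 27.9% of the DMSO lists and 40.3% to 48.9% of the ACBI1 lists. The number of reads is unknown. List length moves with treatment for the whole genome, and its part in each count of AP-1 peaks was not tested beyond the lists of equal length described with the counts. Of the epithelial markers, EPCAM, KRT7, KRT8 and KRT18 had a promoter peak in 8 of 8 samples and CDH1 in 7. The lung factor NKX2-1 had one in 5 samples, 4 of H1975 and 1 of HCC44. The lung genes SFTPC and NAPSA had one in all 8 and SFTPB in none. PTPRC, LYZ, PECAM1 and CDH5, which mark blood and endothelial cells, had none, and CD3E had one in 3 samples. COL1A1, a collagen gene of fibroblasts, had one in all 8, COL1A2 in 4, PDGFRB in 1 and DCN in none.

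Around the AP-1 genes, with each peak counted once, the H1975 lists held 53 and 55 distal peaks in DMSO cells against 42 and 37 in ACBI1 cells. The HCC44 lists held 61 and 64 in DMSO cells against 45 and 39 in ACBI1 cells. In both lines the ACBI1 samples were below the DMSO samples without overlap. Distal peaks of the whole lists fell too, and by a larger proportion. They numbered 32080 and 29580 in DMSO cells against 16514 and 11310 in ACBI1 cells in H1975. In HCC44 they numbered 38598 and 38237 against 15443 and 14107. FOSL1, FOSL2, ATF3, BATF and BATF3 had fewer distal peaks after ACBI1 than after DMSO in each line, with no overlap of the replicates. For FOS, FOSB, JUNB and JUND the groups overlapped or the ACBI1 counts were higher in both lines, and JUN had fewer in HCC44 only.

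JUN, the founding member of the family, lies at chr1:58780791-58784047 on the minus strand. Its window held 4 and 3 distal peaks in the H1975 DMSO samples and 2 and 3 with ACBI1, and the groups overlapped. In HCC44 it held 4 and 5 in DMSO cells against 3 and 1 in ACBI1 cells, without overlap. The change over both lines was -1.75 peaks (exact permutation p = 0.111).

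JUNB, a JUN protein that activates many targets less strongly than JUN, lies at chr19:12791486-12793315. It had 9 and 8 distal peaks in DMSO cells against 8 and 9 in ACBI1 cells in H1975. In HCC44 it had 7 and 8 in DMSO cells against 7 and 5 in ACBI1 cells. The groups overlapped in both lines (change -0.75 peaks, exact permutation p = 0.611).

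JUND, the JUN protein that is widely expressed in resting cells, lies at chr19:18279694-18281622 on the minus strand. It had 4 and 4 distal peaks in DMSO cells against 5 and 5 in ACBI1 cells in H1975. It was the only AP-1 gene with more distal peaks in both ACBI1 samples of that line. In HCC44 it had 4 and 6 in DMSO cells against 5 and 4 in ACBI1 cells, which overlapped. The change over both lines was 0.25 peaks and became -0.25 without HCC44 DMSO replicate 1.

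FOS, an immediate early gene induced by growth factors, lies at chr14:75278828-75282230. It had 2 and 2 distal peaks in DMSO cells against 4 and 2 in ACBI1 cells in H1975. In HCC44 it had 6 and 7 in DMSO cells against 6 and 6 in ACBI1 cells. Neither line separated the treatments (change 0.25 peaks, exact permutation p = 1.0), and the change was -0.25 without H1975 ACBI1 replicate 1.

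FOSB, whose short splice form lacks part of the activation domain, lies at chr19:45467996-45475179. All 4 H1975 samples held 6 distal peaks in its window. In HCC44 both DMSO samples held 6 and both ACBI1 samples 7. It was the only AP-1 gene with more distal peaks in both ACBI1 samples of HCC44.

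FOSL1, a FOS protein without the strong activation domain of FOS and a known driver of epithelial invasion, lies at chr11:65892049-65900545. The counts were alike in both lines, with 4 and 4 distal peaks in DMSO cells against 3 and 2 in ACBI1 cells. FOSL2, the other gene of this kind, lies at chr2:28392858-28417317. It had 7 and 8 distal peaks in DMSO cells against 4 and 2 in ACBI1 cells in H1975, and 8 and 8 against 3 and 3 in HCC44. Its change over both lines was -4.75 peaks, and the pooled SD between replicates was 1.12 in H1975 and 0.0 in HCC44. With lists of equal length the FOSL2 change was -0.5 peaks (exact permutation p = 0.5).

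ATF3, a stress-induced factor that can repress transcription, lies at chr1:212565407-212620777 and has 2 listed starts. It had 11 and 13 distal peaks in DMSO cells against 6 and 6 in ACBI1 cells in H1975. In HCC44 it had 12 and 11 in DMSO cells against 7 and 7 in ACBI1 cells. The change over both lines was -5.25 peaks, with pooled SDs between replicates of 1.0 in H1975 and 0.5 in HCC44, and the groups were apart in each line.

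BATF and BATF3 are small AP-1 proteins best known from lymphocytes and dendritic cells. BATF, at chr14:75522469-75546992, had 4 and 5 distal peaks in DMSO cells against 3 and 2 in ACBI1 cells in H1975, and 5 and 4 against 3 and 3 in HCC44. BATF3, at chr1:212686417-212699840, had 6 and 6 in DMSO cells against 2 and 1 in ACBI1 cells in H1975. In HCC44 it had 9 and 9 in DMSO cells against 2 and 2 in ACBI1 cells. Its change over both lines was -5.75 peaks, with pooled SDs of 0.5 and 0.0. The windows of ATF3 and BATF3 overlap, and 4 distal regions of each line lie in both, so these counts are not independent.

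**Figure D1:**
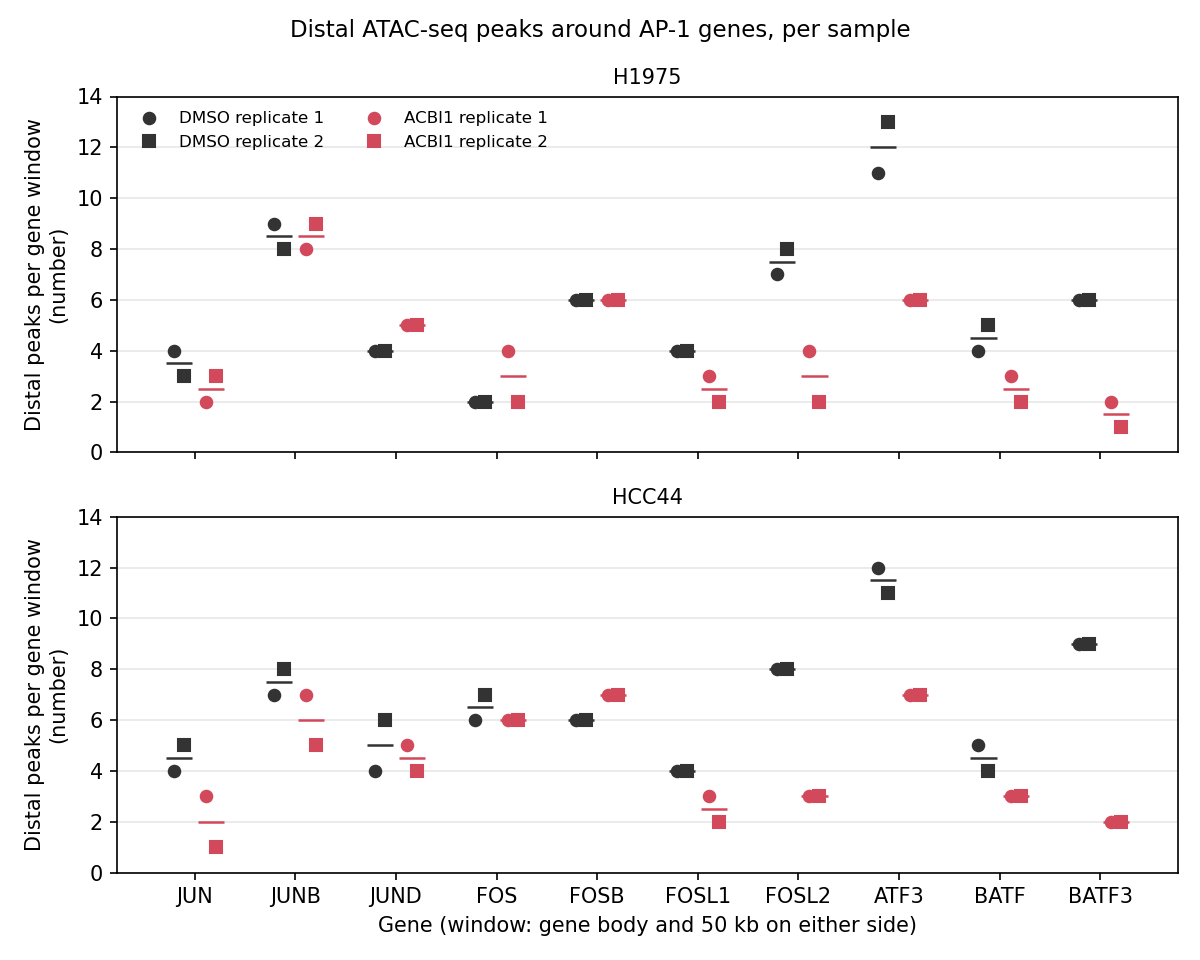
Number of distal peaks (y axis) in the window of each AP-1 gene (x axis), 1 point per sample, black for DMSO and red for ACBI1, with circles for replicate 1, squares for replicate 2 and a line at the mean of 2 replicates. The red points lie below the black points in both lines for FOSL1, FOSL2, ATF3, BATF and BATF3, and FOSB stays at 6 or 7 peaks in all 8 samples.

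Treatment labels were permuted within each line, which gives 36 arrangements and a smallest possible two-sided exact p of 0.0556. FOSL1 (change -1.5 peaks), FOSL2, ATF3, BATF (change -1.75) and BATF3 reached exactly that value. So did 6654 genes, 33.2% of all, and the smallest p adjusted over all 20037 genes was 0.167. No gene could pass 0.05 in this design.

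These counts were set against all protein-coding genes. In H1975, 5 of 10 AP-1 genes had fewer distal peaks in both ACBI1 samples, against 42.7% of all genes, and 1 of 10 had more, against 1.42%. Among genes with at least 3 distal peaks in each DMSO sample, which leave room for a lower count, 5 of 9 AP-1 genes and 72.2% of such genes overall had fewer. In HCC44, 6 of 10 had fewer and 1 of 10 had more, against 53.0% and 1.92% of all genes, and with at least 3 peaks 6 of 10 had fewer, against 82.5%. Fewer in both lines held for 5 of 10 AP-1 genes and 33.0% of all genes. The median change over both lines was -1.625 peaks for the AP-1 genes and -1.0 for all genes. All genes include those with fewer than 3 distal peaks, which leave little room for a lower count. Among genes with at least 3 in each DMSO sample, the median change was -2.0 in H1975 and -2.5 in HCC44. For the 10 AP-1 genes it was smaller, at -1.25 and -1.5. When every list was reduced to its 22133 strongest peaks by −log10 q, fewer distal peaks were counted for 2 AP-1 genes of H1975 and 3 of HCC44, against 12.9% and 15.4% of all genes. FOSL1 and BATF then each had a change of 0.5 peaks, so their direction depends on list length. The change was -0.5 for FOSL2 and JUN, -2.75 for ATF3 and -4.0 for BATF3. JUNB, JUND and FOSB then had more peaks with ACBI1, by 2.5, 2.0 and 3.0, each at the smallest possible exact permutation p of 0.0556. Equal lists hold fewer DMSO peaks by construction, which favours such gains. How many of all genes had more peaks or reached that p with equal lists was not computed, so these gains cannot be called particular to AP-1 genes. The direction of JUNB, JUND, FOS and FOSB turned under at least 1 other setting each.

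Distal regions were then followed one by one. Peaks of the 4 samples of a line were merged where they overlapped. A region was called lost if both DMSO samples and no ACBI1 sample had a peak, partly lost if 1 ACBI1 sample had one, and retained if all 4 had one. Of 47 AP-1 regions listed in H1975 DMSO replicates 1 and 2, 13 were lost, 4 partly lost and 30 retained. The lost share was 27.7%, against 51.3% of 27023 distal regions of the genome. In HCC44, 23 of 57 were lost, 3 partly lost and 31 retained. The lost share was 40.4%, against 63.9% of 33594 regions. Regions share a library and a locus and are not replicates, so these shares carry no test.

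**Figure D2:**
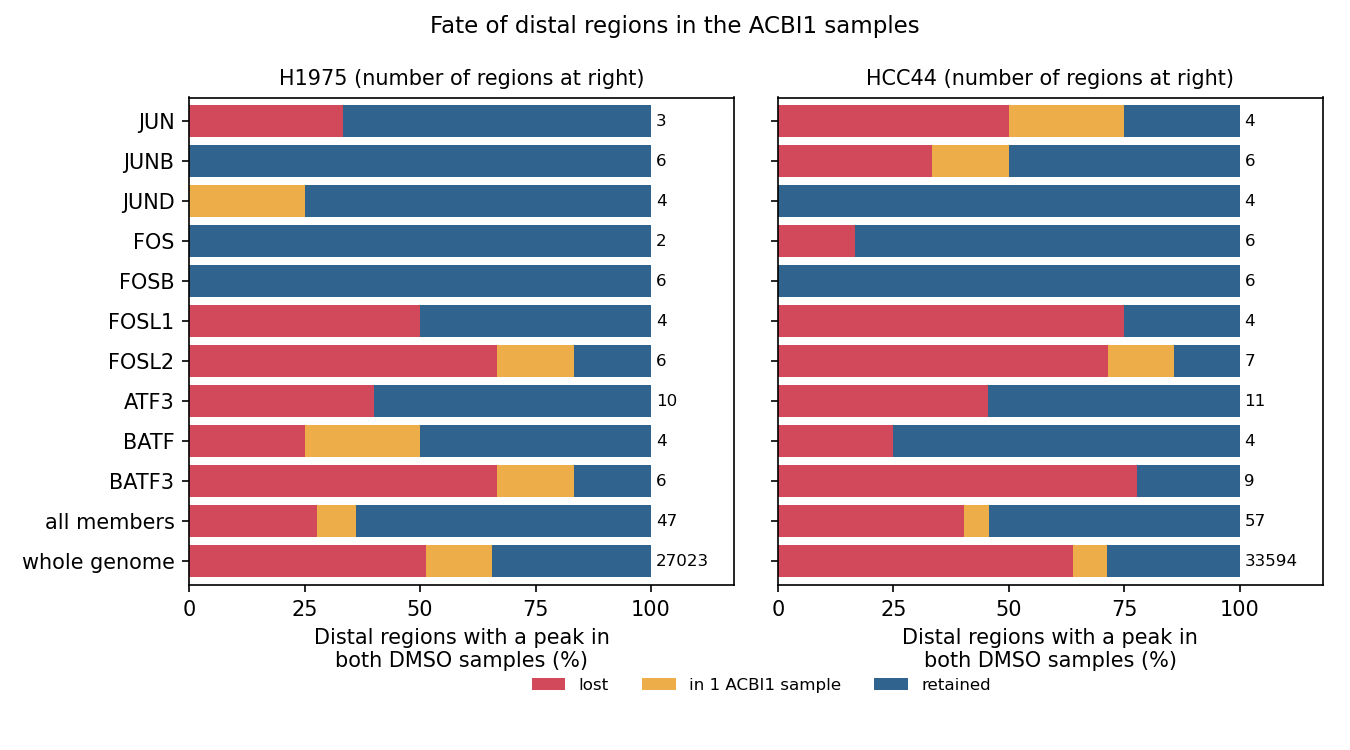
Share (x axis, %) of distal regions listed in both DMSO replicates that were lost, seen in 1 ACBI1 sample or retained in 2, per gene and for the whole genome, with the number of regions at the right of each bar. FOSB and JUND have no lost region in either line, while FOSL2 and BATF3 have the highest lost shares in H1975 and BATF3 in HCC44.

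In the JUN window, the highest-ranked lost region was chr1:58823468-58823930 in H1975, intergenic and centred at -39652 bp from the start (negative values are upstream), and it was lost in HCC44 too. Its −log10 q stood at percentiles 53.2 and 57.3 of the H1975 DMSO lists. The percentile is the share of a list's peaks with a lower −log10 q, and percentiles from lists of different length show no change in signal. In HCC44 a region at chr1:58755214-58756016, at percentiles 92.8 and 95.2 with DMSO, was listed in ACBI1 replicate 1 and not in replicate 2.

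JUNB and JUND lost few regions. JUNB had 0 lost of 6 in H1975 and 2 lost of 6 in HCC44. The retained HCC44 region at chr19:12765899-12766681, within the neighbouring gene HOOK2, ranked at percentiles 99.1 and 99.3 in DMSO cells against 97.8 and 92.4 in ACBI1 cells. JUND had 0 lost of 4 in each line, and 1 partly lost in H1975.

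A pair of FOS regions was listed in all 8 samples. The region chr14:75258743-75259713, intergenic and centred at -19600 bp from the start of FOS, ranked at percentiles 95.4, 94.8, 95.0 and 93.6 in the 4 H1975 lists. In HCC44 it ranked at 98.0 and 97.4 in DMSO cells against 96.8 and 90.9 in ACBI1 cells. Its width was 960, 874, 971 and 858 bp in the H1975 samples in that order. FOSB retained 6 of 6 regions in both lines. The highest-ranked was centred at -11885 bp from the start, at chr19:45455706-45456516 in H1975, with percentiles 72.9 and 74.6 in DMSO cells against 61.4 and 45.6 in ACBI1 cells.

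FOSL2 lost 4 of 6 regions in H1975 and 5 of 7 in HCC44. In HCC44 the highest-ranked lost region lay within the gene at chr2:28408631-28409618, 988 bp wide and 16266 bp from the start, at percentiles 74.5 and 69.0 with DMSO. In H1975 it was chr2:28360974-28361326, upstream and intergenic, at 71.9 and 69.4. A region 59432 bp downstream of the start, chr2:28451858-28452722, was the only one retained in HCC44. It was 252 and 304 bp wide in DMSO cells against 631 and 852 bp in ACBI1 cells. The corresponding H1975 region was listed in the ACBI1 samples only, at 500 and 296 bp. The H1975 region was singled out after its values had been seen.

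FOSL1 lost 2 of 4 regions in H1975 and 3 of 4 in HCC44. The retained region at chr11:65915257-65916211 in HCC44 was 955 and 777 bp wide in DMSO cells against 309 and 537 bp in ACBI1 cells. A region centred 2284 bp beyond the higher-coordinate end of FOSL1, chr11:65902238-65903421, was lost in HCC44 and its H1975 counterpart was retained.

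ATF3 lost 4 of 10 regions in H1975 and 5 of 11 in HCC44, and 6 were retained in each. Those inside the gene that ranked highest were chr1:212607797-212609613 in H1975 and chr1:212595739-212596640 in HCC44. The H1975 region was 1817, 1643, 1584 and 1194 bp wide, at percentiles 95.4, 94.8, 91.7 and 89.4. The HCC44 region was 885 and 815 bp wide in DMSO cells against 493 and 588 bp in ACBI1 cells. Its percentiles were 97.3 and 97.9 in DMSO cells against 33.4 and 31.5 in ACBI1 cells, lists of different lengths. These are different regions, so they do not compare the lines. The H1975 counterpart of this HCC44 region ranked at 88.0 and 79.6 in DMSO cells against 46.4 and 3.93 in ACBI1 cells. The HCC44 counterpart of the H1975 region ranked at 76.4 and 80.0 against 76.9 and 65.9.

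The peak nearest the first start of ATF3 was listed in all 8 samples, singled out after its values had been seen. Its near edge lay 1407 to 1446 bp downstream of the start. It ranked at percentiles 76.7 and 73.0 in the H1975 DMSO lists and 16.3 and 1.03 with ACBI1. In HCC44 it ranked at 87.2 and 88.4 in DMSO cells against 5.07 and 5.80 in ACBI1 cells. In each line its widths after ACBI1 lay below those after DMSO, at 592 and 556 against 547 and 493 bp in H1975 and 538 and 618 against 490 and 442 bp in HCC44.

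BATF lost 1 of 4 regions in each line. Its highest-ranked retained region was intragenic in both lines. In HCC44 it was chr14:75535747-75536446, 700 and 661 bp wide in DMSO cells against 316 and 294 bp in ACBI1 cells. In H1975 it was 570 and 583 bp against 446 and 267 bp. The region was narrower in both ACBI1 samples in each line.

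BATF3 lost 4 of 6 regions in H1975 and 7 of 9 in HCC44, the most of the 10 genes in HCC44. The highest-ranked lost region in HCC44 was chr1:212727441-212728135, within NSL1, at percentiles 77.7 and 78.2 with DMSO. Within the overlap of the ATF3 and BATF3 windows, chr1:212655963-212656911 in H1975 was 949 and 929 bp wide with DMSO and lost. Its HCC44 counterpart was 909 and 940 bp wide and also lost. By contrast, chr1:212664942-212665887, at the start of the non-coding gene LINC02773, was retained in both lines. It was 399 and 399 bp wide in DMSO cells against 831 and 941 bp in ACBI1 cells in HCC44, and its percentiles were 94.3, 95.3, 89.7 and 84.7.

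**Figure D3:**
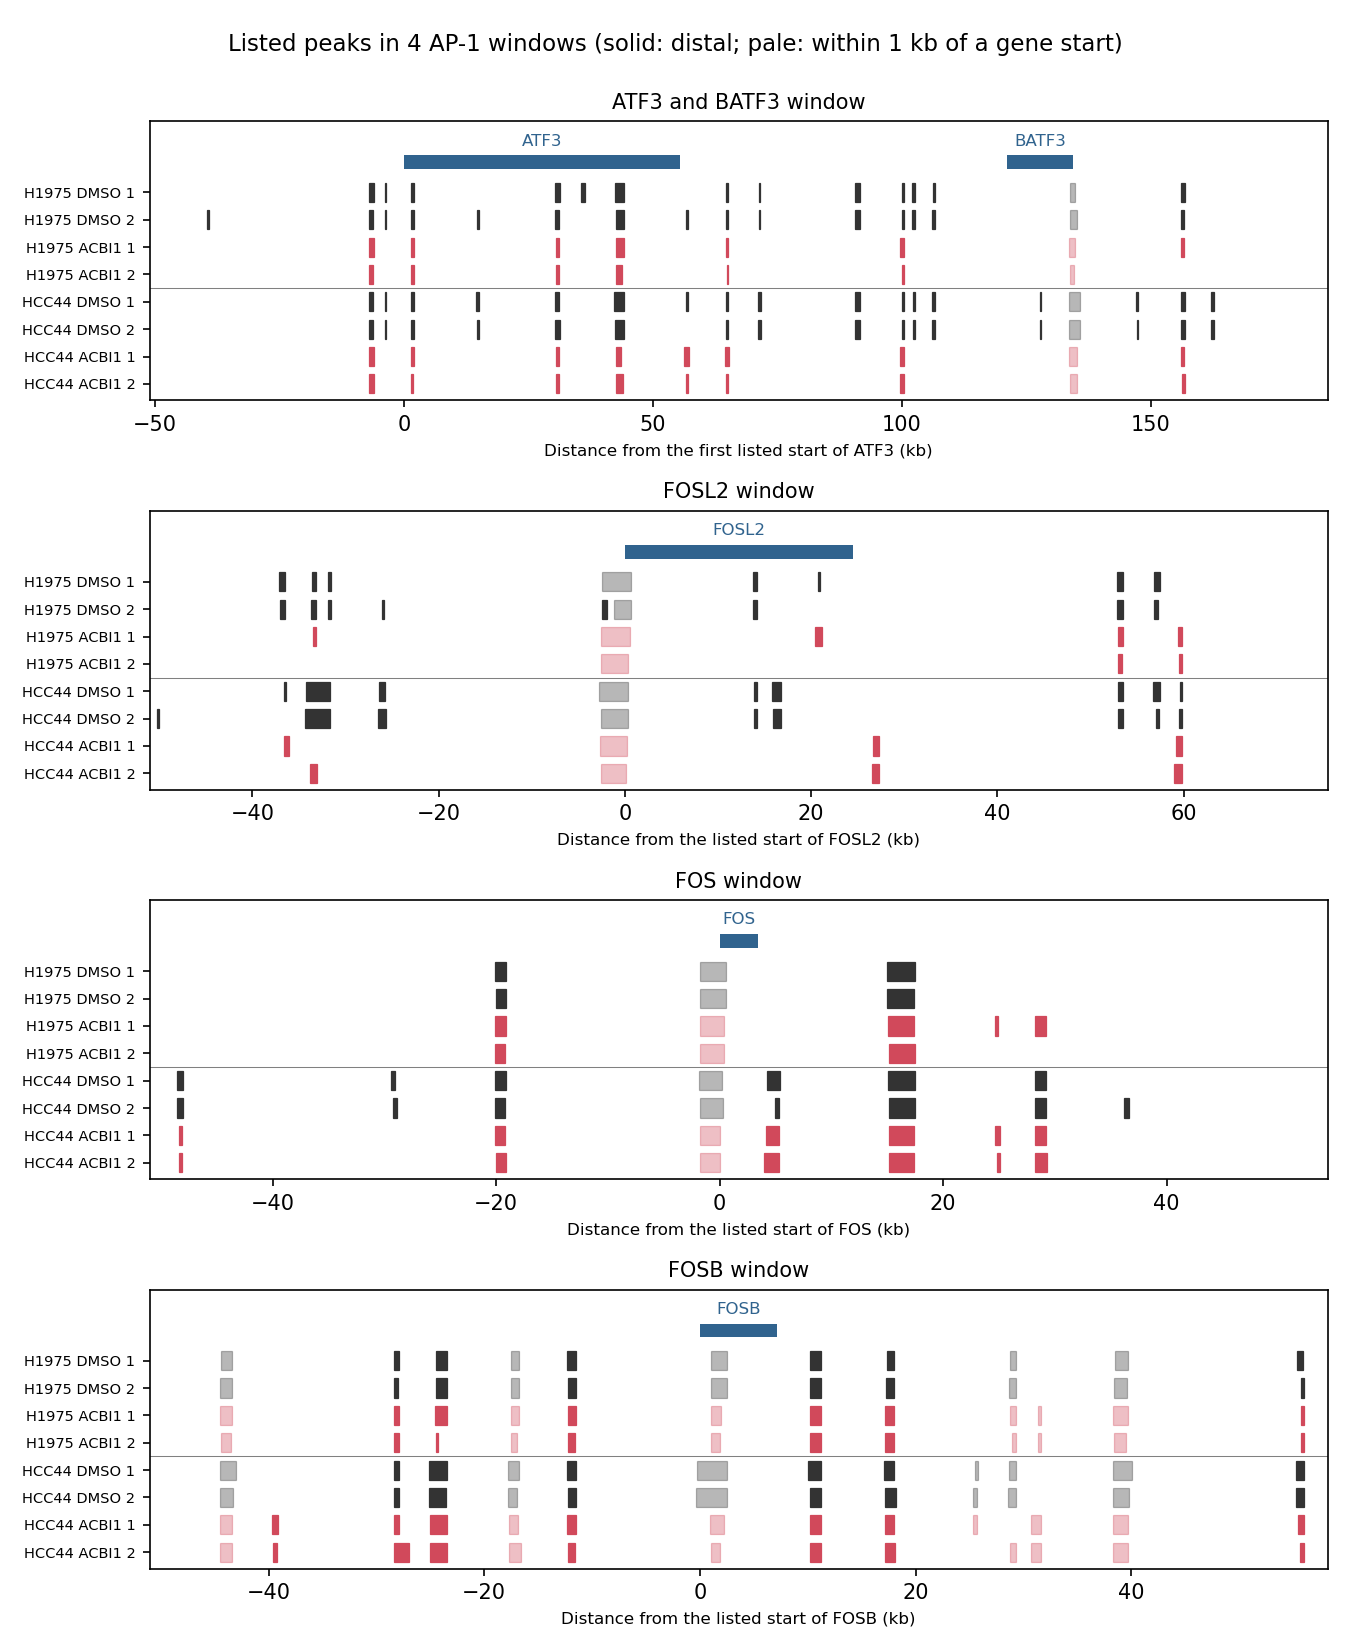
Listed peaks in the joint ATF3 and BATF3 window and in the FOSL2, FOS and FOSB windows, by distance from the listed start (x axis, kb), 1 row per sample, black for DMSO and red for ACBI1, pale where a peak lies within 1 kb of a gene start. Rows of ACBI1 samples lack the lost regions between ATF3 and BATF3, while the 6 FOSB distal regions are seen in all 8 samples.

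Across the AP-1 windows, lost regions had narrower DMSO peaks and ranked lower with DMSO than retained ones. In H1975 the median DMSO peak width, averaged over the replicates of a region, was 452.5 bp for lost and 693 bp for retained regions. For HCC44 it was 586 against 815.5 bp. By width of the merged region, the H1975 medians were 463 bp for lost and 768.5 bp for retained AP-1 regions, against 387 and 744 bp for the genome. In HCC44 they were 668 and 946 bp, against 590 and 901 bp for the genome. The contrast in region width is thus shared with the genome. For the percentile no genome value is given here. The median DMSO percentile was 31.1 for lost and 69.7 for retained regions in H1975, and 37.8 and 68.8 in HCC44. A non-coding gene start lay within 1 kb of 1 of 13 lost and 6 of 30 retained regions in H1975, against 1.99% and 8.05% of such regions of the genome. In HCC44 it did so for 1 of 23 and 5 of 31, against 2.25% and 8.0%.

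The lines were set side by side over the 39 AP-1 regions listed in each of the 4 DMSO samples. Of these, 9 were lost in both lines and 23 retained in both. Lost in both held for 38.5% of 18523 such regions of the genome and for 23.1% of the AP-1 regions. None was lost in H1975 and retained in HCC44, and 2 were retained in H1975 and lost in HCC44, 1 near FOSL1 and 1 near FOSL2. Of the 18523 regions of the genome, 459 had the first of these fates and 1683 the second, so the genome was uneven in the same direction. Retained in both held for 5282 of the 18523. FOSB retained 6 of 6 in both lines. ATF3 lost 4 of 10 and BATF3 4 of 6 in both, and these windows share regions.

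In the DMSO samples, FOS and BATF3 had more distal peaks in both HCC44 samples than in both H1975 samples, with means of 6.5 against 2.0 and 9.0 against 6.0. The exact permutation p was 0.333 for each, the smallest possible with 6 arrangements. That is 2 of 10 AP-1 genes, against 31.6% of all genes. No AP-1 gene had fewer in HCC44, against 14.2% of all genes. The other 8 overlapped between the lines.

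Promoter peaks were kept at most of these genes. In H1975, 8 of 8 AP-1 genes with a promoter peak in each DMSO replicate kept one in both ACBI1 samples, against 95.9% of all genes. In HCC44, 8 of 9 did, against 92.9%. The exception was BATF, whose promoter peak of 274 and 433 bp in the HCC44 DMSO samples was not listed with ACBI1. BATF had no promoter peak in any H1975 sample. ATF3 had none within 1 kb of either listed start in any of the 8 samples. Starts absent from the promoter table were not considered, so a peak at such a start inside ATF3 would count as distal. These lists thus do not show that ATF3 lacks an accessible promoter.

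Whether a peak covered the start base itself was read as well. The starts of JUN, JUNB and FOSL2 were covered in all 8 samples. In HCC44 the FOSB start was covered in both DMSO samples, by peaks that began at -305 and -345 bp. With ACBI1 the nearest peak began 961 and 988 bp downstream, as it did at 984 to 986 bp in all 4 H1975 samples. The JUND start was covered in 6 samples, and in the HCC44 ACBI1 samples the peak ended 70 and 22 bp upstream of it. The FOS start was covered in 7 samples and missed by 2 bp in HCC44 ACBI1 replicate 2. Over all 22199 listed starts of protein-coding genes, 53.5% to 53.7% were covered in the DMSO samples and 49.6% to 52.5% with ACBI1.

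Promoter peak width differed most at FOSB and JUND in HCC44. The FOSB peak was 2775 and 2818 bp wide in DMSO cells against 1224 and 856 bp in ACBI1 cells, a log2 change of -1.45 with a pooled SD between replicates of 0.258. JUND had 1965 and 1094 bp in DMSO cells against 751 and 568 bp in ACBI1 cells (log2 change -1.17, SD 0.468). BATF3 had 2243 and 2266 bp against 1613 and 1549 bp (log2 change -0.51, SD 0.030). In each of these the ACBI1 samples lay below the DMSO samples.

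In H1975 the FOSB peak was 1487 and 1489 bp wide in DMSO cells against 984 and 909 bp in ACBI1 cells (log2 change -0.65, SD 0.057). FOS had 2372 and 2319 bp against 2205 and 2110 bp, a smaller change of -0.12 on the log2 scale. FOSL1 has no listed start, and its widest peak at either gene end was 1404 and 1424 bp against 1632 and 1544 bp. These widths come from different ends. At the end shared with CCDC85B they were 1040 and 1021 bp in DMSO cells against 1632 and 1544 bp in ACBI1 cells. At the other end they were 1404 and 1424 bp against 1386 and 1368 bp, so the direction depends on the end. JUNB, JUND and FOSL2 overlapped between treatments in H1975, and in HCC44 only FOSL2 did.

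The promoter peak was narrower in both ACBI1 samples for 4 of 8 AP-1 genes in H1975, against 52.1% of all genes. In HCC44 this held for 7 of 8, against 69.7%. FOSL1 is not among the 4 of H1975, because its widest peak was taken over either gene end. The median log2 change was -0.15 for the AP-1 genes and -0.185 for all genes in H1975, and -0.26 and -0.22 in HCC44.

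**Figure D4:**
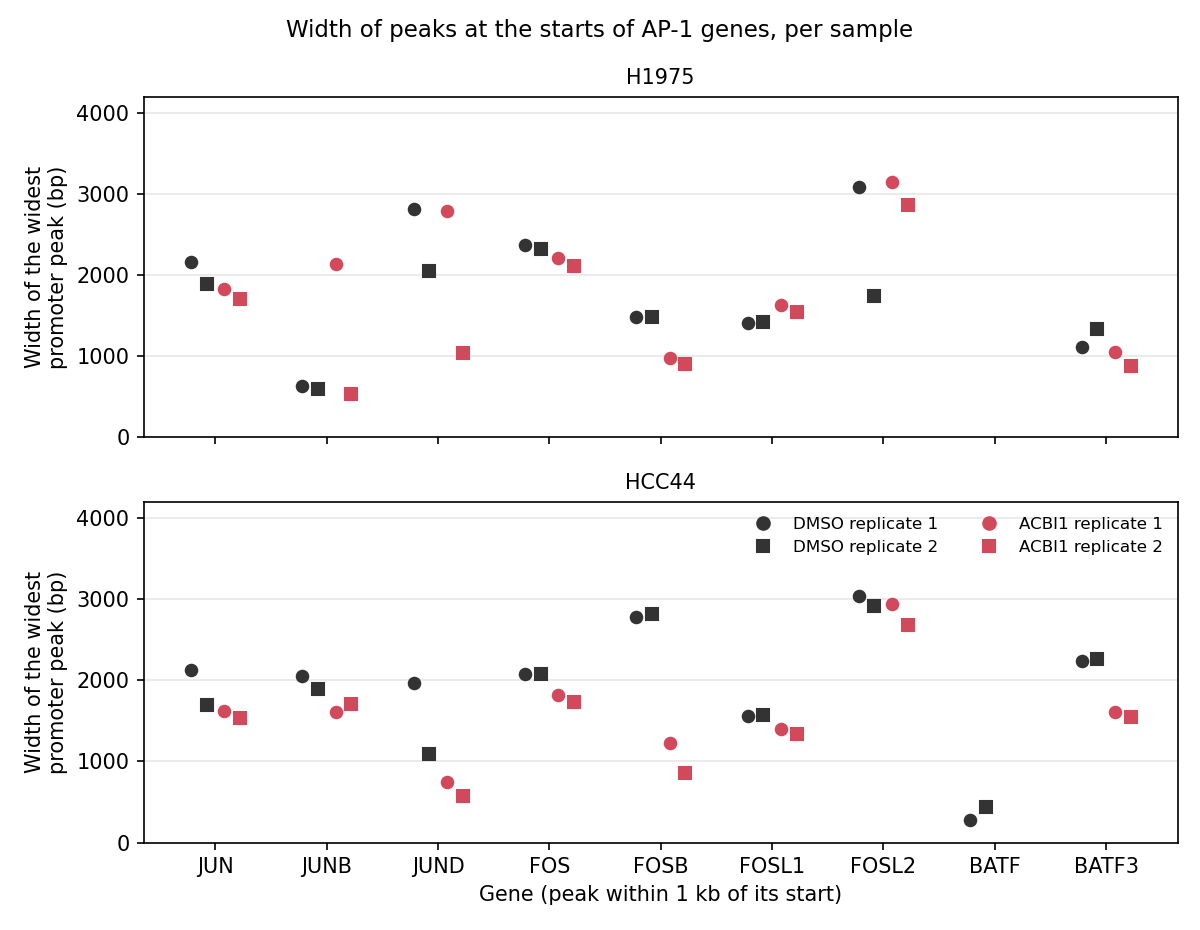
Width (y axis, bp) of the widest peak within 1 kb of the start of each AP-1 gene (x axis), 1 point per sample, black for DMSO and red for ACBI1, with circles for replicate 1 and squares for replicate 2. In HCC44 the FOSB peak is at least 2775 bp in both DMSO samples and at most 1224 bp with ACBI1, and BATF has points for DMSO only.

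By the authors' −log10 q, 2 and 1 of the 8 AP-1 genes with a promoter peak ranked below percentile 50 in the H1975 DMSO lists. In the HCC44 DMSO lists 4 and 5 of 9 did. JUND, at 13.4 and 34.8, and BATF, at 13.4 and 18.5, were among the latter. The share of all genes with a promoter peak below percentile 50 is not given here. These counts therefore cannot be called particular to AP-1 genes. The FOS promoter ranked at percentiles 80.0 and 81.6 in the H1975 DMSO lists and 82.7 and 81.1 in the HCC44 ones. With ACBI1 it ranked at 74.0 and 69.2 in H1975 and 54.0 and 51.6 in HCC44. JUN ranked at percentile 56.7 or higher in all 8 lists. By the authors' fold enrichment the same JUN peaks ranked low, between percentiles 1.73 and 10.1. This was not particular to JUN, since JUNB ranked at 2.71 or lower and JUND at 8.32 or lower in all 8 lists. BATF3 ranked at 21.5 or higher.

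A list of 27 other genes of the pathway, covering AP-1 partners, the kinases that act on AP-1 proteins, their phosphatases and upstream regulators, was counted in the same way. In H1975, 13 had fewer distal peaks in both ACBI1 samples, 0 had more and 14 overlapped, against 42.7% of all genes with fewer. In HCC44, 12 had fewer, 0 had more and 15 overlapped, against 53.0% with fewer. Fewer in both lines held for 8 of 27, against 33.0% of all genes, so the list lay near the background. Among them were the bZIP factors JDP2 and MAFF and the MAP kinase phosphatases DUSP1, DUSP5 and DUSP6. Near DUSP1 there were 9 and 8 distal peaks in DMSO cells against 6 and 5 in ACBI1 cells in H1975, and 7 and 8 against 3 and 4 in HCC44. Near DUSP6 there were 2 and 1 against 0 and 0 in H1975, and 6 and 6 against 1 and 0 in HCC44. The JDP2 window overlaps that of an AP-1 gene, so its peaks are partly shared.

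A peak missing from a list is not a measurement of closed chromatin, because listing also depends on depth and on signal over background. In these bulk samples, fewer cells with an open site and less accessibility per cell cannot be told apart.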

How the data were processed

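ATAC-seq of H1975 and HCC44 cells with DMSO or ACBI1 was read from 1 deposited peak list per sample, so peaks had been called per sample. BWA and hg38 are named in the submitters' processing notes, and the peak caller, its settings and the read filters are not given in the sources used here. The authors' fold enrichment is a deposited ratio over the caller's background. The authors' p and q were deposited as −log10 values, with the lowest −log10 q between 10.0 and 10.2 in each list. The deposited score was 10 times the −log10 q in at least 99.9% of rows and was not used. The smallest gap between peaks, 657 to 1153 bp, differed between lists. The number of reads behind a list is unknown, so no counting interval could be given.

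Genes came from a RefSeq table of GRCh38.p14 (20037 protein-coding genes), with starts from the promoter table for 15843 and either gene end for 4194. Windows, overlaps of at least 1 bp, regions, widths and percentiles were computed with pandas 2.3.3, numpy 2.4.6 and scipy 1.17.1 under Python 3.11.15, and figures with matplotlib 3.10.9. The scripts were tested on simulated lists. Distal counts were compared by a two-sided exact permutation test over samples, run on every gene and adjusted by Benjamini-Hochberg. The alternatives tried were stricter and equal-length lists, other windows, other definitions of promoter, overlap and distal, joined peaks, samples left out and a replicate block. The 10 AP-1 genes, the 27 other pathway genes and the cell type markers were chosen with earlier results of these data known. All AP-1 genes are named, other pathway genes only where the treatments did not overlap in both lines, and regions mainly as the highest-ranked lost and retained one of each gene; other regions were singled out after their values had been seen. Distal sequences were not used here. Values of some marker and pathway genes are not reported here.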

Additional observations from a re-analysis of the deposited data

How the results depend on the processing

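Of 90 changes in distal peaks per AP-1 gene under other settings, 76 kept their direction, 5 were 0 and 9 turned. With 1 sample left out, 76 of 80 kept it, 2 were 0 and 2 turned. Of the counts of genes and lost shares, 48 of 52 stayed within 1.5 times or within the interval of the share, and 24 of 24 with 1 sample left out. That interval is a binomial one around the main share. It treats regions as independent, which they are not, so the tally is only a rough guide. The lost share near AP-1 genes was below that of the genome in 28 of 28 values, samples left out included, from 19.2% to 35.8% in H1975 and 33.3% to 48.9% in HCC44. With lists of equal length, fewer distal peaks were counted for 2 AP-1 genes in H1975 and 3 in HCC44, and 4 of the 4 genes then with a promoter peak in both HCC44 DMSO samples kept it. The change in distal peaks became 0.5 for FOSL1, 0.5 for BATF and 2.5 for JUNB, -0.5 for FOSL2 and JUN, -2.75 for ATF3 and -4.0 for BATF3, 3.0 for FOSB, 2.0 for JUND and 1.5 for FOS. With 100 kb on either side, 8 AP-1 genes had fewer in H1975 (55.9% of all genes), and the changes were -0.75 for FOS, -3.0 for JUND and -1.25 for FOSB. With 25 kb JUND changed by -0.25, and with a minimum −log10 q of 20 JUNB by 0.5 and JUND by -0.75. For the samples left out, FOS ranged from -0.25 to 0.75 and JUND from -0.25 to 0.75. The direction of JUNB, JUND, FOS, FOSB, FOSL1 and BATF is therefore not settled by these lists. FOSL1 and BATF turned only with lists of equal length. The cause was not tested, except that equal lists hold fewer DMSO peaks by construction. One setting, away from the starts of non-coding genes, was chosen after seeing the data.

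With a replicate block, pairing samples by number within each line, the change is the same by construction, for example -4.75 for FOSL2 (sign flips, exact p = 0.125, the smallest of 16). Deviations of same-numbered samples correlated at 0.068 in H1975 and 0.026 in HCC44 over genes. With so few replicates, these values cannot show whether same-numbered samples were handled together.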
